A study of Equus caballus with 3 samples.

Results

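The genes described here are 9 cathepsin and lysosome genes, CTSK, CTSB, CTSD, CTSL, CTSZ, LAMP1, LAMP2, PSAP and CD68, which were looked up by symbol in the 3 deposited count matrices. A row was found for 8 of the 9 in each matrix, among 29927 gene rows that occur in any of them. CTSD, the aspartic protease of the lysosome, has no row under that symbol and is not analysed here. CTSL has a row but held 0 UMIs in AT-derived, 3 in BM-derived and 1 in PB-derived MSCs, so 7 genes carry the results. The genes were selected on their levels in these same cells, the CPM and shares of cells given below, which had been seen when the list was made. Their differences between sources are therefore given as a description, and no test was made.

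Lysosomes are acidic organelles in which proteins, lipids and sugars taken up by the cell or delivered by autophagy are broken down. Cathepsins are their proteases, most of them cysteine proteases that are made as inactive precursors and can also be secreted, and cathepsin K, the product of CTSK, is best known as the collagen-degrading protease of bone-resorbing osteoclasts and is also made by fibroblasts and other stromal cells. LAMP1 and LAMP2 encode the heavily glycosylated proteins that line the lysosomal membrane, PSAP encodes the precursor of the saposins that help sphingolipid hydrolases reach their substrates, and CD68 is a related membrane protein much used as a macrophage marker.

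Single-cell transcripts were counted in MSCs grown from fat (adipose tissue, AT), from marrow of bone (BM) and from blood (peripheral blood, PB). All came from the same 10-year-old Warmblood mare and were captured after 2 passages in culture, with no treatment given in the labels. Each source was captured as 1 library with a 3' droplet protocol that tags molecules with a unique molecular identifier (UMI), so the source and the library cannot be told apart, and the intervals given below reflect counting error alone. Sources are as in the sample titles, whereas the source name field gives blood mononuclear cells for all 3 samples. Kept barcodes, those with 2500 to 15000 UMIs of which at most 3% were mitochondrial, numbered 5403 in AT, 5580 in BM and 5318 in PB, with medians of 6874.5 to 7750 UMIs and 2064 to 2184 genes per cell. From 72 to 77 kept barcodes per library were also kept in another library. Levels are CPM, the counts scaled to a common library total, of the UMIs summed over the kept cells of a source, and 3 UMIs in a source correspond to 0.0721 to 0.0750 CPM. The MSC markers ITGB1, CD44, THY1, ENG, B2M and NT5E were detected in each source and summed to 2346 to 2744 CPM. NT5E held only 9, 30 and 43 UMIs in AT, BM and PB, and THY1 ran from 665 CPM in AT to 90.5 in PB. B2M gave 1129, 1151 and 1781 CPM of these sums. Of 13 haematopoietic and macrophage markers with a row, 6 to 8 were at 0 and the list summed to 0.575 to 2.73 CPM, PTPRC being at 0 in each source.

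CTSK differed most between the sources among these genes. Its row lies on chromosome 5, plus strand, and held 62.5 CPM in AT (95% Poisson interval 60.1 to 65.0, 2499 UMIs), 471 in BM (465 to 478, 18971 UMIs) and 126 in PB (123 to 130, 5249 UMIs). BM was highest and AT lowest, and the 3 intervals did not overlap. On the log2 scale of CPM + 1, BM exceeded AT by 2.90 (2.82 to 2.97) and PB by 1.89 (1.83 to 1.95), and PB exceeded AT by 1.0 (0.91 to 1.10). At least 1 CTSK UMI was present in 29.8% of the AT cells, 72.1% of the BM cells and 50.5% of the PB cells, and after thinning each cell to 2500 UMIs in 12.1%, 48.5% and 22.5%. The order of the sources was therefore the same at equal depth. The 3 comparisons share their libraries in pairs and are not separate observations of CTSK.

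The levels of CTSB, which encodes the broadly expressed cysteine protease cathepsin B, lay close together in the 3 sources. CTSB, on the minus strand of chromosome 2, stood at 260 CPM in AT (255 to 265), 268 in BM (263 to 273) and 239 in PB (234 to 243), with a UMI in 80.6%, 80.9% and 80.5% of cells. The interval of its log2 ratio of BM over AT ran from -0.01 to 0.10, and PB was lower than BM, with a ratio of BM over PB of 0.17.

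CTSZ, on the minus strand of chromosome 22, encodes the carboxypeptidase cathepsin Z and had another order of sources. It stood at 127 CPM in AT (124 to 131), 174 in BM (170 to 179) and 200 in PB (196 to 204), with log2 ratios of 0.65 for PB over AT, 0.45 for BM over AT and -0.20 for BM over PB. PB was thus highest and AT lowest without overlap of the intervals, and the shares of cells with a UMI, 56.3%, 65.0% and 71.8%, ran in the same order.

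CTSL, which encodes cathepsin L, was near or below the counting floor on the minus strand of chromosome 23. Its 0 UMIs in AT lie under the floor of 3 UMIs, which is 0.0750 CPM there, and the exact 95% Poisson interval reaches 0.0923 CPM. With 3 UMIs in BM and 1 in PB, no fold is given. The same chromosome carries on its plus strand a row for CTSV, a cysteine protease closely related to cathepsin L, with 188 CPM in AT, 171 in BM and 172 in PB. How reads of such related genes were divided between the rows was not tested.

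Among the membrane genes, LAMP1 was higher in BM. LAMP1, on the plus strand of chromosome 17, stood at 152 CPM in AT (148 to 156), 289 in BM (283 to 294) and 173 in PB (169 to 177), and a UMI was found in 64.4%, 83.7% and 71.1% of cells. The log2 ratio was 0.92 for BM over AT (0.86 to 0.98), 0.74 for BM over PB and 0.19 for PB over AT, so LAMP1 lay just under a 2-fold difference. LAMP2, on the minus strand of chromosome X, stood at 41.3 CPM in AT (39.3 to 43.3), 46.6 in BM (44.5 to 48.7) and 42.5 in PB (40.5 to 44.5). Its AT and PB intervals overlapped, as did those of BM and PB at the edge, and the share of cells with a UMI lay between 24.9% and 25.5%. The log2 ratio of BM over AT was 0.17 (0.04 to 0.30). The BM and PB totals of LAMP2 hid small groups of cells with much higher levels, which are described with the clusters.

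CD68, on the plus strand of chromosome 11, was sparse, with 6.88 CPM in AT (6.09 to 7.74), 11 in BM (10.0 to 12.1) and 4.85 in PB (4.21 to 5.57), and a UMI in 5.0%, 7.44% and 3.69% of cells. The order was BM, AT, PB without overlap, with a log2 ratio of BM over PB of 1.04 (0.75 to 1.33). No cell of a type that should lack lysosomal transcripts was among the kept barcodes, so the part of free RNA in these low shares was not tested.

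PSAP, on the minus strand of chromosome 1, differed little. It stood at 179 CPM in AT (175 to 183), 187 in BM (183 to 191) and 155 in PB (151 to 159), with a UMI in 67.7%, 69.1% and 65.3% of cells. PB lay below both other sources, by a log2 ratio of -0.21 against AT, and the interval of BM over AT, from -0.004 to 0.13, held 0.

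**Figure D1:**
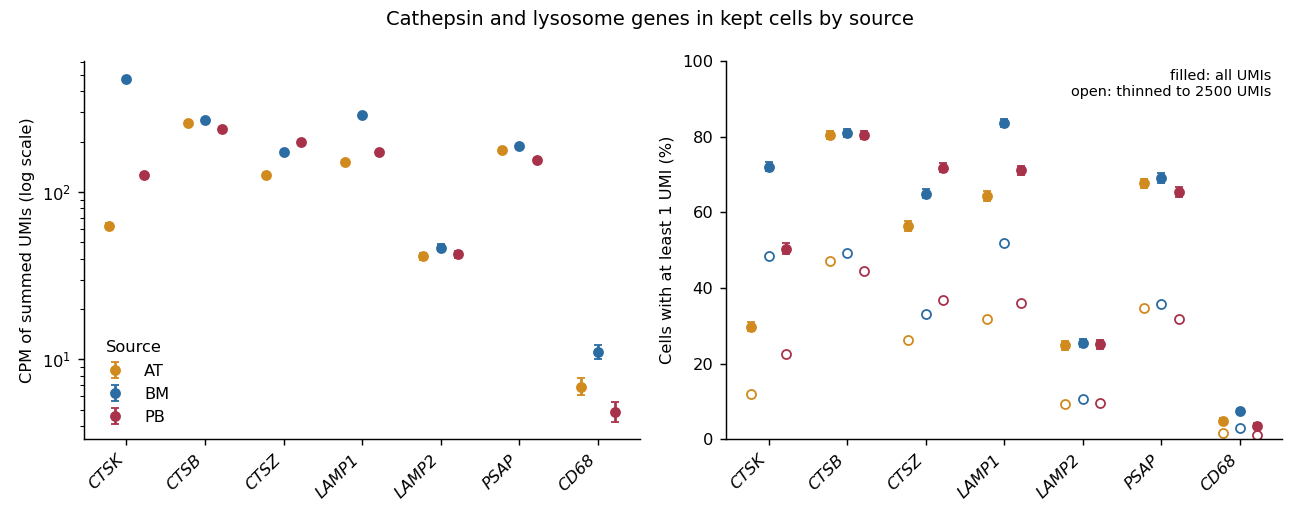
Left, CPM of the summed UMIs (log scale) of 7 genes in kept AT, BM and PB cells with 95% Poisson intervals. Right, percent of kept cells with at least 1 UMI with 95% Clopper-Pearson intervals (filled), and the same after thinning each cell to 2500 UMIs (open). CTSK runs from 62.5 CPM in AT to 471 in BM, whereas CTSB, LAMP2 and PSAP nearly coincide.

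Read together, few of these genes passed a 2-fold difference (log2 ratio of at least 1). Over AT, 1 of the 8 genes with a row was 2-fold higher in BM, CTSK, where 7.19% of the 6550 genes with a mean of at least 10 CPM passed in that direction. Over AT, 1 of the 8, again CTSK, was at the threshold in PB, where 5.01% of genes passed, and it fell short under 8 of 11 alternatives, with log2 ratios of 0.79 to 0.99. Of the 11, 1 leaves out BM cells only and cannot move this ratio. Another leaves out a PB cluster with more CTSK, which lowers the ratio by construction. Over PB, CTSK and CD68 passed in BM, where 4.87% of genes did, CD68 no longer with TMM factors (0.83). CD68 and CTSL had means under 10 CPM and are not part of these background shares. In the opposite directions 0 of the 8 passed, where 2.03% of genes were 2-fold higher in AT than in BM, 3.18% in AT than in PB and 1.73% in PB than in BM. Of the 6 genes with a mean of at least 10 CPM, 5 were highest in BM, where 57.7% of all genes were highest, 1 (CTSZ) in PB, where 20.9% were, and 0 in AT, where 21.4% were. The median log2 ratio of all genes was 0.22 for BM over AT, 0.03 for PB over AT and 0.19 for BM over PB and the ratios of BM are to be read against these medians. With TMM factors, which bring these medians to -0.05, -0.01 and -0.04, CTSK stayed 2.62 higher in BM than in AT and LAMP1 0.64, while CTSB (-0.23), PSAP (-0.22) and LAMP2 (-0.10) turned to slightly lower in BM than in AT, and CTSB (-0.07) and LAMP2 (-0.10) to slightly lower in BM than in PB. The share of genes with a UMI in over 50% of cells was 17.9% in AT, 19.8% in BM and 19.1% in PB, and of the 8 genes here 4, 5 and 5 did, CTSK being the 1 that did so in BM and PB and not in AT.

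By the variance of its counts over their mean, CTSK was also the most unevenly distributed of these genes over cells. The median AT cell held 0 CPM, the 90th percentile lay at 185 and the 99th at 588. In BM the median was 209, the 90th percentile 1299 and the 99th 4737, and in PB these were 70.6, 319 and 916. The BM cells thus ranged from no CTSK UMI at the 25th percentile to well above the mean of the source, and the highest cell held 121 UMIs, against 30 in AT and 82 in PB. Cells with 10 or more CTSK UMIs made up 0.185% of AT, 8.39% of BM and 0.658% of PB cells.

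The 10% of cells with the most CTSK UMIs held 57.1% (AT), 50.5% (BM) and 47.6% (PB) of its UMIs. This share is also high for sparse genes, at 51.3%, 53.9% and 54.5% for LAMP2 and 100% in each source for CD68, so it does not rank the genes. After thinning to 2500 UMIs, the variance of the CTSK count over its mean was 1.93 in AT, 4.70 in BM and 2.01 in PB. Genes of similar mean had medians of 1.02, 1.14 and 1.04, and CTSK lay above 99.6% of 752, 99.2% of 124 and 99.8% of 401 such genes. The other genes lay between 0.99 and 1.12, beside 1 for counting error alone. PSAP was at 1.11 in AT, 1.12 in BM and 1.03 in PB, and CTSZ at 1.05, 1.11 and 1.11, and the 4 of these values over 1.1 lay above 76.9% to 81.7% of the genes of similar mean. CTSB was at 1.02 to 1.04 and LAMP1 at 1.01 to 1.07, and LAMP2, at 1.06 to 1.10, stood above 89.4% to 92.9% of the genes of similar mean.

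**Figure D2:**
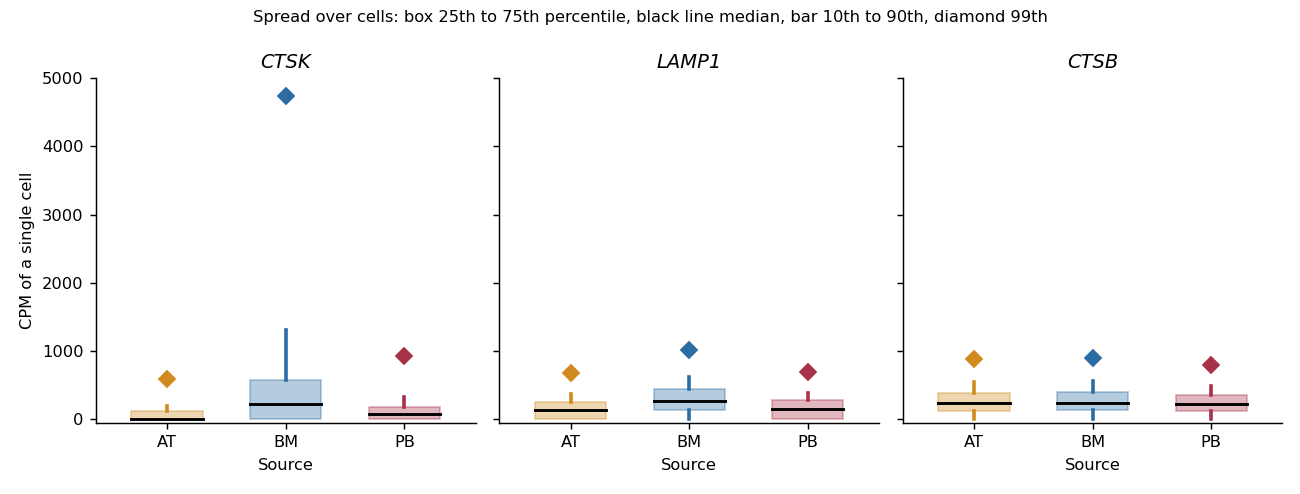
CPM of single cells for CTSK, LAMP1 and CTSB in AT, BM and PB, with the box at the 25th to 75th percentile, the black line at the median, the bar from the 10th to the 90th and the diamond at the 99th percentile. The 99th percentile of CTSK in BM, 4737 CPM, lies far above that of LAMP1 (1009) and CTSB (899) in the same cells.

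The wider lysosomal system was described with 9 lists of 109 further genes, of which 98 had a row and 69 a mean of at least 10 CPM. BM had the highest level for 51 of the 69 (73.9%), where it had for 57.7% of all genes, AT for 15 (21.4% of all genes) and PB for 3 (20.9% of all genes). In BM over AT, 8 were 2-fold higher and 2 lower, where 7.19% and 2.03% of all genes were, 53 (76.8%) were above 0, as 71.8% of all genes were, and the median log2 ratio was 0.47, beside 0.22 for all genes. In PB over AT, 0 were 2-fold higher and 2 lower, where 5.01% and 3.18% of all genes were, with a median of -0.11 beside 0.03. In BM over PB, 11 were 2-fold higher and 0 lower, where 4.87% and 1.73% of all genes were, 63 (91.3%) were above 0, as 70.8% of all genes were, and the median was 0.42 beside 0.19. With TMM factors, looked at for the lists after the data were seen, BM was highest for 36 of the 69 (52.2%) and for 29.5% of all genes. The genes 2-fold higher in BM then fell to 3 of the 69 over AT and 4 over PB, where 315 and 214 of 6550 genes were. These counts are near the background for so few genes. The medians were then 0.20 and 0.19, beside -0.05 and -0.04 for all genes. A 2-fold difference between highest and lowest source was then left for 7 (10.1%), 5 of them highest in BM, beside 13.2% of all genes, of which 32.6% were. A 2-fold difference between the highest and the lowest source was seen for 17 of the 69 (24.6%), 15 of them highest in BM and 2 in AT, beside 14.2% of all genes, of which 53.3% were highest in BM and 21.2% in AT.

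The vacuolar ATPase, the proton pump that acidifies the lysosome, was mostly highest in BM, by how much and for how many genes depending on the scaling. Scaled to library totals, 12 of its 12 genes with a mean of at least 10 CPM were highest in BM, where 57.7% of all genes were, and the median log2 ratio was 0.62 over AT and 0.44 over PB. ATP6V1G1 stood at 358 CPM in AT, 654 in BM and 470 in PB, and ATP6V0B at 134, 235 and 112. ATP6V0C (44.7, 75.5 and 36.3 CPM) and ATP6AP2 (112, 176 and 119) had the same highest source. These ratios stand beside medians of 0.22 and 0.19 for all genes. With TMM factors 8 of the 12 were highest in BM, where 29.5% of all genes were, with medians of 0.35 over AT and 0.21 over PB, while ATP6V1B2 and ATP6V1D turned to highest in AT and ATP6V1E1 and ATP6V1F to highest in PB.

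Among the other cathepsins, CTSS, a cysteine protease of antigen processing, stood at 14.1 CPM in AT, 32.9 in BM and 23.3 in PB. It was the only 1 of the 5 genes past 2-fold, in BM over AT, where 7.19% of all genes were. With TMM factors 0 of the 5 were, where 315 of 6550 genes were, counts near the background for so few genes. CTSF went the other way, with 147 CPM in AT, 94.9 in BM and 89.7 in PB, and CTSA, a carboxypeptidase that also protects other lysosomal enzymes, stood at 28.3, 36.1 and 30.3. The median of the 5 genes of this list was -0.05 for BM over AT, below that of all genes. Among the inhibitors, CST3, which encodes the secreted cysteine protease inhibitor cystatin C, stood at 782 CPM in AT, 2135 in BM and 1202 in PB, in the same order as CTSK. CST6 (65.6, 45.4 and 55.9 CPM) was highest in AT, and CSTA, at 4.18 CPM in AT and 0.398 in BM, held no UMI in PB.

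Of the genes of delivery to the lysosome, 5 of 7 with a mean of at least 10 CPM were highest in BM, and of those of its membrane 7 of 9, beside 57.7% of all genes. With TMM factors 4 of 7 and 4 of 9 were, beside 29.5%. The membrane genes 2-fold higher in BM numbered 2 of 9 over AT and 3 of 9 over PB, where 7.19% and 4.87% of all genes were. With TMM factors they numbered 0 and 2, where 315 and 214 of 6550 genes were. GNPTAB, a subunit of the enzyme that starts the mannose 6-phosphate tag, stood at 27.4 CPM in AT, 74.6 in BM and 19.9 in PB, and the tag receptor gene M6PR at 33.9, 51.6 and 24.5. NPC2, the soluble cholesterol carrier of the lysosome, stood at 372, 541 and 220 CPM, with PB lowest, and GNPTG at 52.5, 62.9 and 45.6. OSTM1, which encodes the partner of a lysosomal chloride exchanger, stood at 21.5, 49.8 and 18.6 CPM, the calcium channel gene MCOLN1 at 22.7, 42.7 and 18.7, and the endolysosomal ion channel gene TPCN1 at 5.78, 14.6 and 11.7. CD63, a tetraspanin of late endosomes, stood at 1499, 2239 and 1228 CPM. SCARB2 stood at 83.5, 95.1 and 65.1 CPM and LAPTM4A at 584, 722 and 660, and the median log2 ratio of the 9 membrane genes was 0.34 over AT and 0.73 over PB, with TMM factors 0.08 and 0.50.

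LAPTM4B was highest in AT, with 43.4 CPM, against 12.7 in BM and 2.52 in PB. Among the hydrolases, TPP1, a serine peptidase, stood at 72.0 CPM in AT, 179 in BM and 81.1 in PB, and DNASE2, the acid DNase, at 30.7, 69.0 and 39.6. AGA (84.6, 123.7 and 60.8 CPM) was just past 2-fold between BM and PB, whereas GUSB (58.0, 62.3 and 49.6 CPM) was not. Of the 13 hydrolases of their list, 2 were 2-fold higher in BM over PB, where 4.87% of all genes were. With TMM factors 0 of the 13 were, where 214 of 6550 genes were. The sphingolipid hydrolases and activators, which work with the saposins of PSAP, had 0 of 9 genes 2-fold higher in BM over AT or over PB, where 7.19% and 4.87% of all genes were, counts that are near the background for so few genes. Their median log2 ratio for BM over AT was 0.07, beside 0.22 for all genes and 0.06 for PSAP, and with TMM factors -0.20, beside -0.05 and -0.22. GM2A stood at 117, 106 and 63.7 CPM and GLB1 at 56.8, 59.8 and 65.7.

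Of the MiT/TFE transcription factors, which activate many lysosomal genes, only MITF and TFE3 had a mean of at least 10 CPM, and 0 of these 2 was highest in BM, beside 57.7% of all genes. MITF stood at 23.6 CPM in AT, 3.40 in BM and 3.39 in PB, TFEB at 1.23, 1.17 and 0.985, and TFE3 at 14.7, 15.2 and 17.3. MITF, which is also needed by osteoclasts and pigment cells, was thus highest in AT, where CTSK was lowest, but nearly equal in BM and PB, where CTSK differed. A relation of MITF to CTSK was not tested. Of the autophagy and Ragulator genes, 9 of 10 were highest in BM, and 7 of 10 with TMM factors, where 57.7% and 29.5% of all genes were. GABARAP, which encodes a ubiquitin-like protein of the autophagosome, stood at 811, 1481 and 864 CPM, LAMTOR4 at 188, 286 and 230 and the GTPase gene RRAGC at 25, 43.5 and 19.6, while LAMTOR5 (234, 224 and 183) was highest in AT and GRN, the lysosomal progranulin gene of the sorting list, at 134, 128 and 102 CPM, was too.

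**Figure D3:**
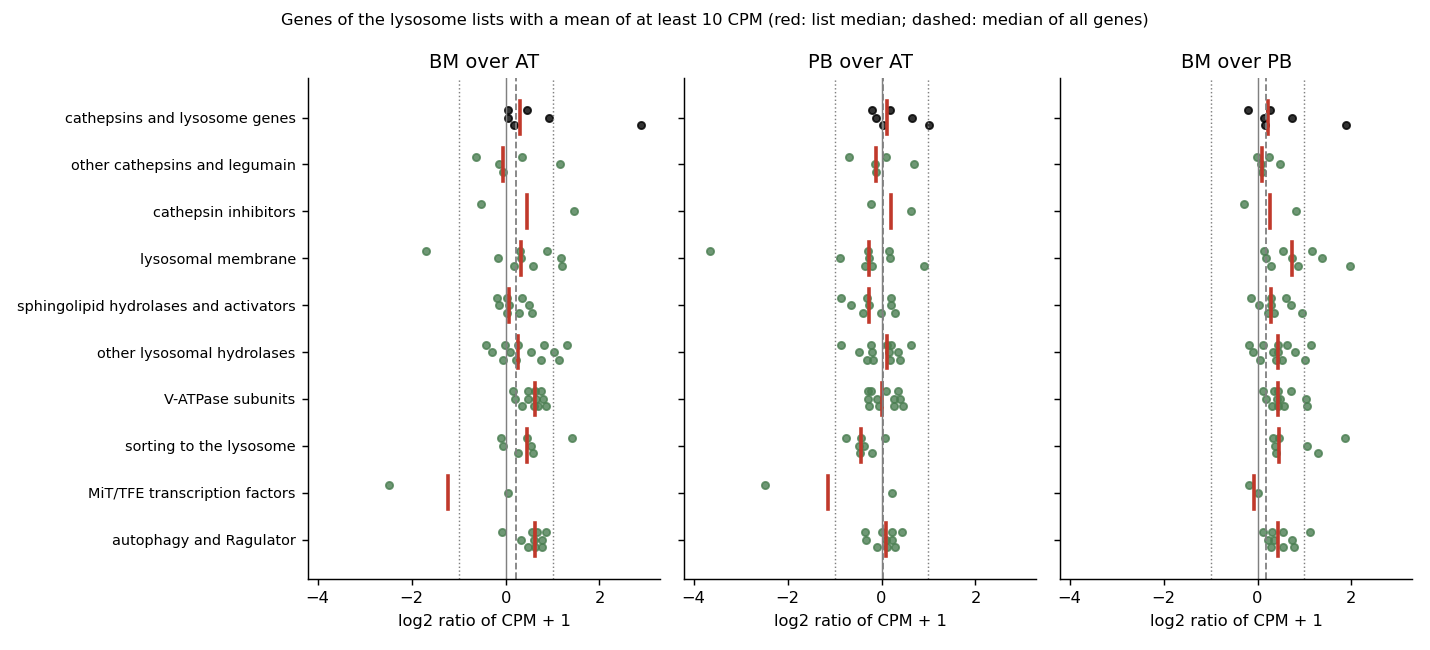
Log2 ratios of CPM + 1 between the sources, 1 point a gene, for the 6 cathepsin and lysosome genes (black) and the further genes (green) with a mean of at least 10 CPM. Red bars are list medians, the dashed line the median of all genes (0.22, 0.03 and 0.19), and dotted lines a 2-fold difference. CTSK, at 2.90, is the farthest right in BM over AT, and the 12 V-ATPase subunits lie above 0 in both BM comparisons at this scaling by library totals, against 10 of the 12 in each with TMM factors.

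Markers of bone-resorbing and bone-forming cells were set beside CTSK. The 7 osteoclast markers with a row summed to 0.675 CPM in AT, 5.0 in BM and 0.0721 in PB, with 4, 3 and 4 of them at 0. ATP6V0D2 gave 189 UMIs in BM, 13 in AT and 1 in PB, and ACP5, the tartrate-resistant acid phosphatase gene that defines osteoclasts, gave 9 UMIs in AT and 0 in BM and PB. The 5 osteoblast markers with a row summed to 4.6 CPM in AT, 173 in BM and 380 in PB. ALPL, the gene of tissue-nonspecific alkaline phosphatase, made up most of the PB sum, with 2.88 CPM in AT, 96.0 in BM and 326 in PB. RUNX2 and SP7 were also highest in PB, while IBSP (0, 32.3 and 0.673 CPM) and SPP1 (0.700, 16.6 and 10.9) were highest in BM and lowest in AT, the order of CTSK. The part of osteoblast-like cells in the CTSK levels was not tested. Genes of proliferation summed to 246, 517 and 236 CPM, and cells called G1 made up 58.8%, 67.5% and 60.8%. In G1 cells alone, an alternative chosen after seeing the data, the log2 ratio of CTSK was 3.26 for BM over AT, 2.28 for BM over PB and 0.98 for PB over AT. LAMP1 reached 1.08 for BM over AT in these cells. The restriction to G1 also leaves out most cells of a BM cluster with low CTSK and LAMP1, described below as cluster 3.

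Across the cells of a source, CTSK varied with PSAP more than with the other genes of the list. The Pearson r of their log-normalised levels was 0.10 in AT, 0.26 in BM and 0.12 in PB. Since all cells of a source share a library, and the counts are sparse, r is a description over 5403, 5580 and 5318 cells and is lowered by counting error. Of the 7 other genes, 1 in AT, 3 in BM and 2 in PB had an r of at least 0.1 with CTSK, where 0.516%, 4.74% and 0.773% of genes with at least 10 CPM in that source did. The 7 include CTSL, under 10 CPM in each source and without an r in AT, and CD68, under 10 CPM in AT and PB. In BM the genes past 0.1 were PSAP, LAMP1 with 0.23 and LAMP2 with 0.14, and in PB PSAP and LAMP2 with 0.11. CTSK and LAMP1 went together in BM only in this sense, with r at 0.03 in AT and 0.04 in PB. CTSK and CTSZ had r of 0.00, 0.02 and 0.05, and CTSK and CTSB 0.04, 0.05 and 0.08.

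LAMP2 also went with PSAP, with r of 0.10 in AT, 0.11 in BM and 0.15 in PB. An r of at least 0.1 with LAMP2 was found for 1 of the 7 other genes in AT, 2 in BM and 3 in PB, beside 0.145%, 0.612% and 2.1% of genes. The third in PB was CTSZ, with 0.12 there and 0.01 and 0.04 in AT and BM. CTSL and CD68 are again counted among the 7. LAMP1 and LAMP2, whose proteins line the same membrane, hardly varied together, with r of 0.01, 0.01 and 0.02.

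**Figure D4:**
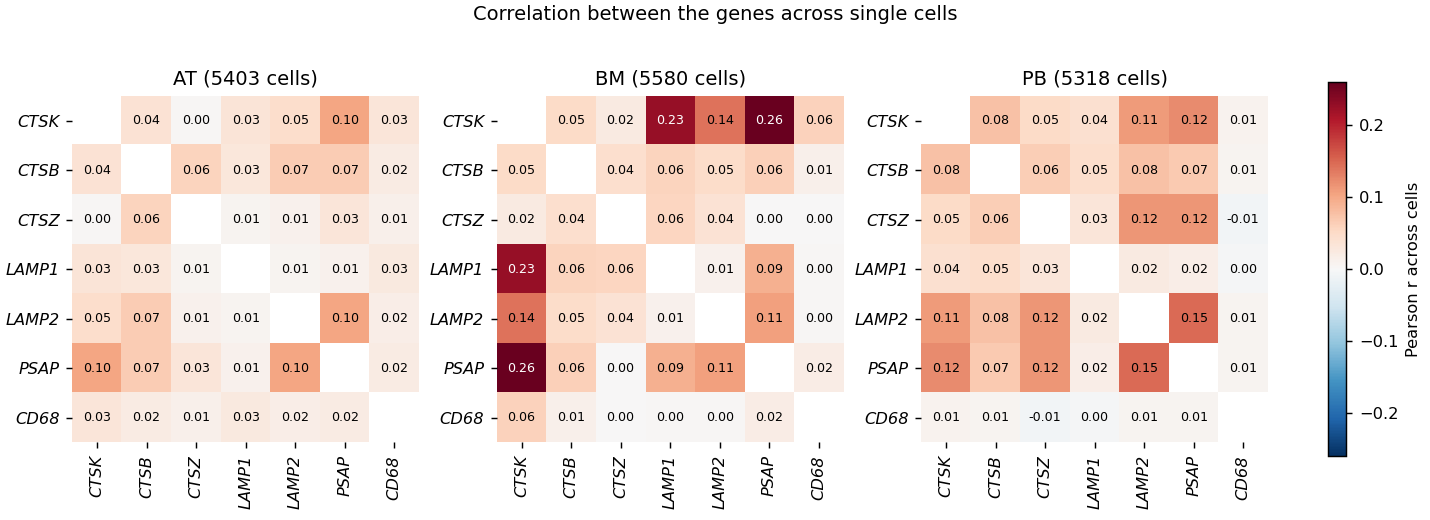
Pearson r of log-normalised levels between 7 genes across the kept cells of AT, BM and PB. The darkest squares are CTSK with PSAP (0.26) and with LAMP1 (0.23) in BM, and the CD68 rows stay near 0 in each source.

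These values moved with depth and with clusters. After thinning to 2500 UMIs the r of CTSK was 0.14 with PSAP and 0.11 with LAMP1 in BM, and 0.06 and 0.08 with PSAP in AT and PB. With the mean of each cluster subtracted, CTSK with PSAP stood at 0.07 in AT, 0.18 in BM and 0.07 in PB, CTSK with LAMP1 in BM at 0.14, and LAMP2 with PSAP at 0.08, 0.06 and 0.06. In BM, CTSK with PSAP and CTSK with LAMP1 thus had an r over 0.1 under both alternatives, CTSK with LAMP2 (0.10 thinned, just under 0.1, and 0.08) and LAMP2 with PSAP did not.

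The 5 genes that varied most with CTSK were taken from those with at least 50 CPM in the source. In BM they were LUM, which encodes the collagen-binding proteoglycan lumican, with r of 0.44, LENEP with 0.42, COL3A1, a chain of fibrillar collagen, with 0.39, ENSECAG00000030777 with 0.39 and the ferritin light chain gene FTL with 0.37. In AT they were LGALS3 (0.19), LUM (0.17), XG (0.16), ANXA4 (0.15) and IGFBP6 (0.14), and in PB TIMP1, an inhibitor of matrix metalloproteinases (0.20), UBB (0.17), CAPG (0.17), LGALS3 (0.17) and B2M (0.17). LENEP lies on chromosome 5, as CTSK does. With LAMP2 they were DCN, another small proteoglycan (0.16), SPARC, B2M, ANXA1 and UBB in AT, LUM (0.19), DCN (0.18), OLFML3, PCOLCE and UBB in BM, and PCOLCE (0.23), DCN (0.22), SERPINF1, UBB and OLFML3 in PB. DCN and UBB were among the 5 in each source. Many of these genes are abundant, where r is less reduced by counting error. Of the further lysosome genes with at least 10 CPM, 3 of 67 in AT, 15 of 72 in BM and 3 of 66 in PB had an r of at least 0.1 with CTSK, where 0.516%, 4.74% and 0.773% of all genes had, and 0, 7 and 9 did with LAMP2, where 0.145%, 0.612% and 2.1% of all genes had. These counts move with depth and clusters, as alternatives run on the lists after the data were seen show. After thinning to 2500 UMIs, 0, 7 and 0 had such an r with CTSK, where 0.0161%, 1.72% and 0.0158% of all genes had, and 0, 0 and 1 with LAMP2, where 0%, 0.0292% and 0.126% had. With cluster means subtracted, 0, 7 and 2 had it with CTSK, where 0.145%, 1.46% and 0.237% of all genes had, and 0 with LAMP2 in each source, where 0.0161%, 0.0437% and 0% had.

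To see where in each source the genes were high, the cells were clustered without the genes described here and without the genes of the lysosome lists, which gave 8 clusters in AT, 7 in BM and 10 in PB. Clusters are called by number and by their leading genes, and differences between a cluster and the other cells are descriptions.

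Cells with high LAMP2 gathered in small clusters of BM and PB. In BM cluster 6, with 84 cells, 1.51% of BM, LAMP2 stood at 268 CPM (232 to 308), against 42.4 in the other BM cells, a log2 ratio of 2.63, and 84.5% of its cells held a UMI. PSAP stood there at 534 CPM against 181, and CTSK at 1606 against 450, the highest level of both among the BM clusters. CTSB (319 against 267 CPM), CTSZ (220 against 174) and LAMP1 (280 against 289) differed less, so the 2 LAMP genes parted in these cells. Of the 6 genes with at least 10 CPM in BM other than LAMP2, for which the cluster was picked, CTSK and PSAP were 2-fold higher, where 5.32% of genes were. Its leading genes included CA4, LAMP2, PIGK and PCOLCE.

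In PB cluster 5, with 387 cells, 7.28% of PB, LAMP2 stood at 147 CPM (135 to 161) against 33.5 in the other PB cells, a log2 ratio of 2.11. PSAP stood at 337 CPM against 139, CTSZ at 345 against 188, CTSK at 232 against 117, CTSB at 318 CPM and LAMP1 at 165 against 174. Of the 5 genes other than LAMP2, PSAP was 2-fold higher, where 5.49% of genes were, and CTSZ and CTSK lay just under 2-fold. Its leading genes were ENSECAG00000032733, PIGK, LAMP2, PLTP and DHRS7. LAMP2 and PSAP were thus 2-fold higher and LAMP1 was not in both clusters.

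The other lysosome genes were counted in these clusters as well. In BM cluster 6, 16 of 72 were 2-fold higher and 0 lower, where 5.32% and 6.69% of all genes were, and in PB cluster 5, 13 of 66 were higher and 0 lower, where 5.49% and 0.836% were. The beta-galactosidase gene GLB1 stood at 240 CPM against 56.4 in BM cluster 6 and at 161 against 57.5 in PB cluster 5. CTSS, at 112 against 31.3 and 53.4 against 20.7 CPM, CTSA, at 105 against 34.8 and 68.5 against 27.0, and CTSV, at 464 against 166 and 437 against 149, were also higher in both. LAPTM4A stood at 2005 against 697 CPM in BM cluster 6 and at 1588 against 580 in PB cluster 5, and the autophagy receptor gene SQSTM1 at 446 against 177 and 263 against 112. GLB1, whose level hardly differed between sources, was thus unevenly distributed within BM and PB.

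Of 6133 genes with at least 10 CPM in both sources, 336 were 2-fold higher in BM cluster 6 and 331 in PB cluster 5, and 214 were in both, 63.7% of the former and 64.7% of the latter. Most of the 214 were not genes of the lysosome lists. PIGK, PCOLCE, PLTP, SERPINF1 and DHRS7 were among them. So were the proteasome genes PSMC2 and PSMD2, the protein folding genes PDIA3 and HSP90B1 and the tRNA synthetase genes RARS and CARS. These were picked after the 214 were seen, and how many genes of their families were not among the 214 was not counted. The median depth was 8783 UMIs in BM cluster 6 and 8711 in PB cluster 5, above the 6874.5 and 7750 of their sources, and 82.1% and 55.6% of their cells were called G1. All 13 haematopoietic and macrophage markers were at 0 in BM cluster 6, and 11 of 13 were in PB cluster 5, where the list summed to 1.52 CPM. Of the 7 osteoclast markers, 6 were at 0 in BM cluster 6, where ATP6V0D2 stood at 13.3 CPM, and 7 in PB cluster 5. The list summed to 4.84 CPM in the BM cells outside cluster 6 and to 11.7 in BM cluster 0. The 8 smooth muscle and pericyte markers summed to 5613 CPM in BM cluster 6, against 3006 in the other BM cells, and to 3536 against 2236 in PB cluster 5, with 1 of the 8 at 0 in each. BM cluster 2 came close, at 5528 CPM with LAMP2 at 34.5. PB cluster 8 was higher, at 3601 CPM with LAMP2 at 41.7. The 5 osteoblast markers summed to 211 against 172 CPM and to 652 against 357, below BM cluster 1 (438) and PB cluster 8 (678). High sums of either list were thus not particular to the LAMP2-high clusters. The part of these lists in the LAMP2 levels was not tested. No AT cluster stood out in this way, with LAMP2 between 19.4 and 50.3 CPM over the 8 clusters. The smallest AT cluster held 379 cells, so cluster levels cannot show whether AT has a group as small as the 84 cells of BM cluster 6. Over single cells, the 99th percentile of LAMP2 was 361.5 CPM in AT and 362.7 in PB, and it was higher in BM. Without BM cluster 6 and PB cluster 5, an alternative chosen after seeing the data, the log2 ratio of LAMP2 was -0.29 for PB over AT, 0.04 for BM over AT and 0.33 for BM over PB. That of CTSK for PB over AT was 0.89. Both clusters were picked for high LAMP2 and none was left out of AT, so a fall of LAMP2 against AT was fixed in advance. CTSK was also higher in both clusters, so leaving them out lowers CTSK against AT too.

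CTSK in BM differed over the larger clusters too. It stood at 649 CPM in cluster 0, with 1641 cells and led by EDNRA, CXCL12, SPON1, VCAN and IGF2, and at 721 in cluster 1, with 1502 cells and led by IBSP, SPP1, C15H2orf40, DPT and PLEKHA5. IBSP and SPP1 encode sialoproteins of bone matrix. CTSK stood at 337 CPM in cluster 2, whose leading genes included EDN1, ENSECAG00000034508, F3 and LMOD1, and at 190 in cluster 4 and 220 in cluster 5, both led by genes of the cell cycle (TOP2A, CENPF, SGO1, CLSPN and BARD1, and CDKN3, CCNB2, CDCA3, CDC20 and ENSECAG00000009520). Only 0.374% and 31.9% of cells were called G1 in clusters 4 and 5, against 89.3% and 93.5% in clusters 0 and 1, and the part of cell cycle in these levels was not tested.

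BM cluster 3 held the lowest levels of CTSK, CTSB, LAMP1, LAMP2 and PSAP among the BM clusters, but not of CTSZ, which was lowest in cluster 5 at 149 CPM, or of CD68. Its 656 cells were led by ENSECAG00000031731, CALCA, EMB, IGFBP5 and HMX2. CTSK stood there at 62.1 CPM (56.0 to 68.6) against 546 in the other BM cells, near the level of all AT cells, and 36.6% of its cells held a UMI. LAMP1 stood at 145 against 315 CPM, LAMP2 at 23.9 against 50.7 and PSAP at 97.7 against 203, while CTSB (209 against 279) and CTSZ (153 against 178) differed less. Of the 6 genes other than CTSK, for which the cluster was picked, LAMP1, LAMP2 and PSAP were 2-fold lower, where 7% of genes were, and so were 13 of the 72 further lysosome genes, among them CST3 (601 against 2415 CPM), TPP1 (50 against 202) and NPC2 (267 against 591). LAPTM4B (49.4 against 6.02 CPM) and GM2A (219 against 85.0) were the 2 of the 72 that were 2-fold higher, where 7.52% of genes were. In this cluster 9.76% of cells were called G1, and its median depth was 9486.5 UMIs. The proliferation genes summed there to 1340 CPM against 367 in the other BM cells and the 5 osteoblast markers to 14.8 against 201, while in cluster 1, with more CTSK, the latter summed to 438 against 86.5. The part of either list in the levels of cluster 3 was not tested. Without cluster 3, an alternative chosen after seeing the data, CTSK was 3.11 and LAMP1 1.05 higher on the log2 scale in BM than in AT. Since the cluster was picked for low CTSK, a rise of CTSK was fixed in advance.

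**Figure D5:**
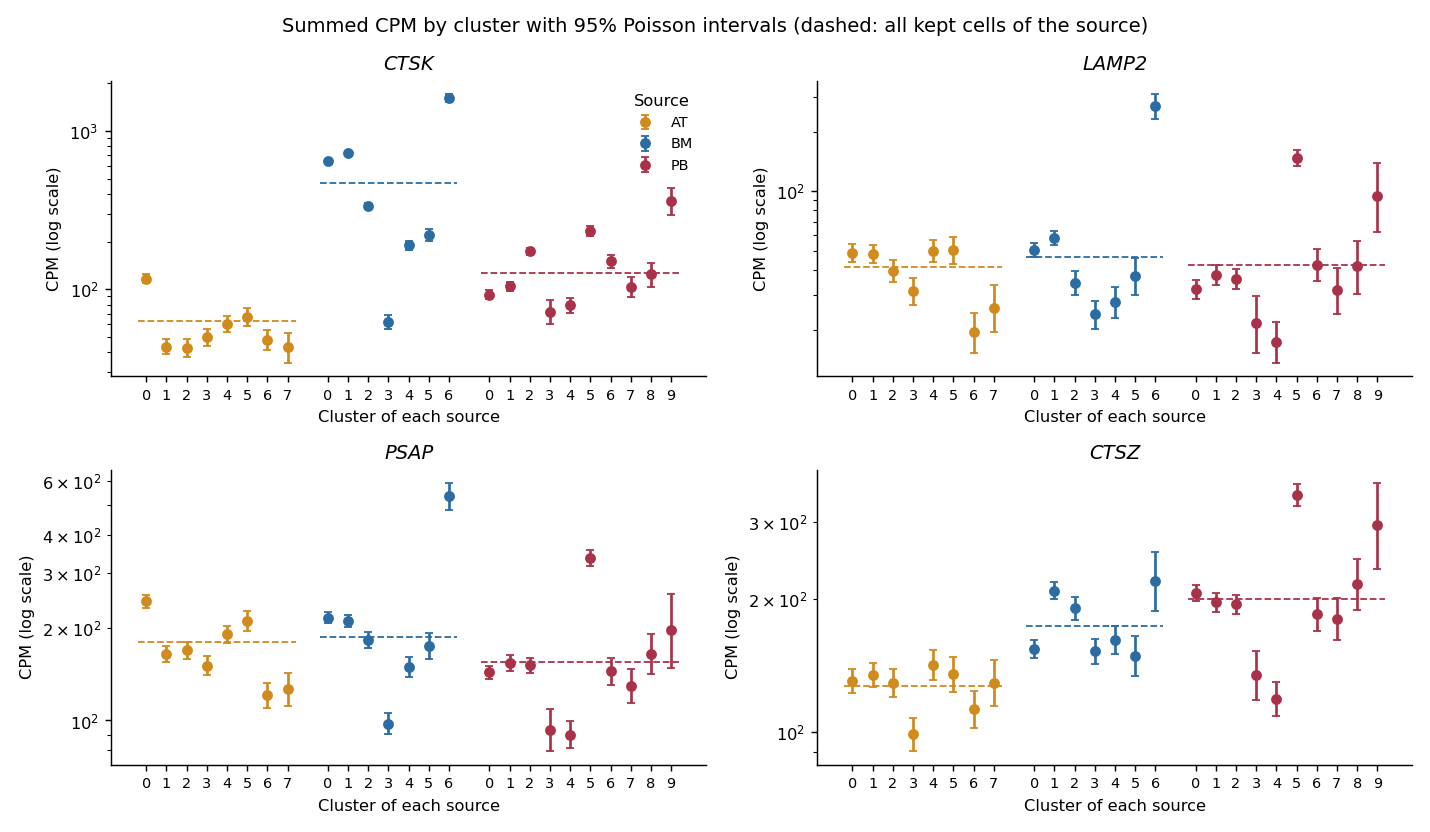
Summed CPM (log scale) of CTSK, LAMP2, PSAP and CTSZ in each cluster of AT, BM and PB with 95% Poisson intervals, and dashed lines at the level of all kept cells of the source. BM cluster 6 (1606 CPM of CTSK, 268 of LAMP2) and PB cluster 5 (147 CPM of LAMP2) stand above the others, and BM cluster 3 lies at the AT level of CTSK.

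In AT, CTSK was highest in cluster 0, with 1053 cells, at 117 CPM against 49.7 in the other AT cells, where PSAP stood at 243 against 164. Under the 3 other clusterings the highest AT cluster stood at 80.6 to 181 CPM. The smooth muscle and pericyte markers summed to 818 CPM in AT cluster 0 against 2848 in the other AT cells, and the proliferation genes to 118 against 276, and their part in the CTSK level was not tested. The leading genes of AT cluster 0 were ENSECAG00000030777, SCARA5, ITGBL1, CTSK and ENSECAG00000020877. Of the other 5 genes with at least 10 CPM in AT, 0 were 2-fold higher there, where 0.306% of genes were. In the other 7 AT clusters CTSK lay between 42.5 and 67.0 CPM, all below the PB level. AT cluster 6, led by MCM5, TOP2A, ENSECAG00000026891, CDK1 and CDCA8 and with 0% of cells called G1, held the lowest LAMP2, 19.4 CPM.

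In PB, CTSK was highest in cluster 9, at 360 CPM (293 to 439) against 125. A CTSK UMI was present in 55.3% of the cells there, beside 50.5% of all PB cells and 70.8% in cluster 5. The 38 cells of cluster 9 were led by CXCL11, CXCL10, GBP5, ENSECAG00000019309 and CD74. The first 3 are induced by interferon and CD74 is the invariant chain of MHC class II, which cathepsins process. LAMP2 stood there at 94.7 CPM (61.8 to 139) against 42.2, and of the 5 genes other than CTSK, for which the cluster was picked, LAMP2 was 2-fold higher, where 2.84% of genes were. These values rest on 99 and 26 UMIs. All 13 haematopoietic and macrophage markers were at 0 in PB cluster 9, and the 6 MSC markers summed to 8750 CPM against 2628, with 1 of them at 0. Over all PB cells B2M made up 1781 of the 2669 CPM of the MSC markers. Its part in the sum of cluster 9 was not tested. CTSK stood at 173 CPM in PB cluster 2, led by ENSECAG00000005938, IFITM5, TIMP3, CH25H and CA2, and at 72.1 to 150 in the clusters other than 2, 5 and 9. LAMP2 was lowest in PB cluster 4, at 17.4 CPM against 45.3, which was led by CDK1, ENSECAG00000026891, CCNA2, TOP2A and CDCA8 and of which 5.81% of cells were called G1. Of the other 5 genes with at least 10 CPM in PB, 0 were 2-fold lower there, where 2.84% of genes were. In all 3 sources the cluster with the fewest G1 cells held LAMP2 at 17.4 to 27.6 CPM, but AT cluster 4, with 28.9% of cells called G1, held it at 50.1 CPM, above the 41.3 of all AT cells.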

How the data were processed

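Per the labels and the study's methods, MSCs of 1 mare were captured as 3 libraries, 1 per source. The authors ran Cell Ranger with the EquCab3.0 build and then ESAT to count molecules per gene, including reads just downstream of a gene. Their workflow left out overlapping exons of opposite strands. A second ESAT run counted features duplicated in the genome, which were merged to 1 entry per gene and added. Whether CTSL or CTSV was among these is not stated. What they deposited are UMI counts, whole numbers for each gene in each barcode, not normalized.

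From these counts, barcodes between 2500 and 15000 UMIs were kept where the mitochondrial share was at most 3%, which left 39980656, 40239295 and 41622445 UMIs in AT, BM and PB. No doublet caller was run here. In the study, putative multiplets were called with DoubletDetection and taken out, and whether the deposited matrices already lack them is not known. UMIs were summed per source, scaled to CPM and compared as log2(CPM + 1). Intervals are exact 95% Poisson and Clopper-Pearson intervals (SciPy 1.17.1). Correlations used ln(1 + 10000 × UMIs over the total of the cell). Clustering was done in R 4.3.3 with sctransform 0.4.2 and Seurat 5.3.0, from 3000 variable genes without the lysosome genes, with the mitochondrial percentage and cell cycle difference regressed out, at resolution 0.6. TMM factors came from edgeR 4.0.16, which was used for no test. No p-value is given, since each source was sequenced once. The computation was tested on simulated counts.

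The genes, lists and thresholds were chosen with earlier results of these data known. The further genes named are, of the fixed lists, up to 15 with the largest difference of at least 2-fold between sources and the 3 of highest level per list, for CTSK and LAMP2 the 5 genes of highest r, and for a cluster its 5 genes of highest fold, both among genes with at least 50 CPM. List genes named within clusters were chosen after their values were seen. A few genes that this rule takes are not reported here. Alternatives were other filters on barcodes, thinning, TMM factors, 25 CPM as the pseudocount, the mean of CPM over single cells, a threshold of 2 UMIs, Spearman's rho, subtraction of cluster means, a narrower range of depth and other clusterings, and 5 were added after the data were seen (G1 cells, leaving out clusters in 2 ways, TMM factors for the lists, and list correlations at equal depth or within clusters). A planned search of promoters for E-box motifs was not run, and no sequences of these genes were used here.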

Additional observations from a re-analysis of the deposited data

Results flagged for a closer look

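The barcodes with fewer than 2500 UMIs, which enter no comparison, also held these genes, and no control sample is available to set beside them. The 8 genes together stood at 924 CPM in 6155 AT barcodes, 1501 in 526 BM barcodes and 946 in 554 PB barcodes. In kept cells the 8 genes summed to 829, 1448 and 940 CPM. In the BM and PB barcodes of low depth CTSK stood at 520 CPM (469 to 576) and 120 (94.2 to 150), against 471 and 126 in kept cells. In the AT barcodes it stood at 128 CPM (119 to 138), against 62.5 in kept AT cells, and CTSZ stood at 191 against 127. CTSB, at 232 CPM (220 to 245) against 260, and PSAP, at 161 (151 to 172) against 179, were lower than in kept AT cells, CD68 was at 4.52 against 6.88, and LAMP1, at 165 (154 to 176) against 152, was higher, whereas LAMP2 (41.8 against 41.3) was near the kept level. Of the 6155 AT barcodes, 5711 also occur in the PB library, where kept cells held 126 CPM of CTSK, 200 of CTSZ, 239 of CTSB, 155 of PSAP, 4.85 of CD68 and 173 of LAMP1, and the part of this overlap in the AT values was not tested.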

How the results depend on the processing

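No paired analysis was possible because each source had only 1 library, although all came from the same mare. No 2-fold call changed sign, but ratios under 2-fold did. With TMM factors CTSB (-0.23 in BM over AT, -0.07 in BM over PB), PSAP (-0.22 in BM over AT) and LAMP2 (-0.10 in both) fell below 0, and LAMP2 in PB over AT did so at -0.29 without the LAMP2-high clusters and by under 0.01 with TMM factors, G1 cells and single-cell means. Leaving out the LAMP2-high clusters of BM and PB, with none left out of AT, lowers LAMP2 against AT by construction. The 2-fold call of CTSK in BM held in each of the 11 alternatives (log2 ratio 2.50 to 3.26 over AT and 1.66 to 2.28 over PB), and its call in PB over AT, at the threshold, was lost (count 0 in place of 1) with at least 500 UMIs, no upper limit, G1 cells, thinning, TMM factors, a pseudocount of 25, single-cell means and without the LAMP2-high clusters (0.79 to 0.99). Leaving out BM cluster 3, picked for low CTSK, raises CTSK in BM by construction and cannot move PB over AT. Leaving out PB cluster 5, with CTSK at 232 CPM against 117, lowers CTSK in PB by construction. The BM over AT count became 2 (LAMP1) in G1 cells and without BM cluster 3, and the BM over PB count became 1 (no CD68) with TMM factors and a pseudocount of 25. Only 9.76% of the cells of BM cluster 3 were called G1, so the first 2 settings leave out many of the same cells and are not separate checks. The counts with a UMI in over 50% of cells (4, 5 and 5 in AT, BM and PB) became 0, 1 and 0 on thinning and 1, 2 and 1 with 2 or more UMIs, and 1 in AT with at least 500 UMIs. The count with r of at least 0.1 with CTSK was 2 to 3 in BM under each alternative, and it became 0 in AT with at least 500 UMIs, thinning, Spearman's rho, cluster means subtracted or 5000 to 10000 UMIs, and in PB 0 with thinning, cluster means subtracted, 5000 to 10000 UMIs or without PB cluster 5, and 1 with Spearman's rho. With LAMP2 it became 0 in AT without shared barcodes, in G1 cells, on thinning, with cluster means subtracted or at 5000 to 10000 UMIs. In BM it became 1 in G1 cells, with Spearman's rho, at 5000 to 10000 UMIs or without cluster 6, and 0 on thinning or with cluster means subtracted. In PB it became 0 on thinning, with cluster means subtracted or without cluster 5, and 1 at 5000 to 10000 UMIs. Counts of r at least 0.1 therefore depend on depth and on clusters. The highest cluster level of LAMP2 in AT was 58.8 CPM at resolution 0.8, that of CTSK in AT 80.6 at resolution 0.4, 139 at 0.8 and 181 with lysosome genes not left out, and that of CTSK in BM 1428 at 0.8, while those of LAMP2 in BM (256 to 275) and PB (145 to 148) and of CTSK in PB (360 to 375) stayed within their counting intervals. The cause of these changes was not tested. Leaving out a replicate was not possible with 1 library per source, and a 3' protocol at these depths detects few transcripts of sparse genes such as CTSL and CD68.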
